A study of Mus musculus with 14 samples.

Results

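The genes described here are the mouse genes of the cytosolic ribosomal proteins and their paralogs, chosen by symbol: Rps, Rpl or Rplp followed by a number, with the Rps6k kinases left out. The rule found 48 of the 18193 genes that the array's annotation assigns to at least 1 probe set of their own. Of these, 22 belong to the small subunit and 26 to the large subunit, and they lie on 17 chromosomes. Each gene was read from its brightest probe set. The arrays hold 103 probe sets for these genes, and 23 genes have more than 1. A further 29 ribosomal protein genes, among them Rpl3 and Rpl10, appear only on probe sets that the annotation assigns to several genes, and they were not analysed as genes.

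The ribosome joins a small subunit, which reads the mRNA, to a large subunit, which forms the peptide bonds. Most of its proteins are made from a single active gene each, in near-equal amounts, and their mRNAs are among the most abundant of a growing cell. A few have a second active gene, a paralog, whose product can take the place of the usual protein. Rpl39l is known from male germ cells and Rpl3l from muscle.

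The series measured mRNA on the way from partial to genuine induced pluripotent stem cells (iPSCs), with 1 Affymetrix array per sample and 14 arrays in all. Partial iPSCs, which stopped before the pluripotent state, were clones 2B1 and 5C5, female and C57BL/6, grown in medium with LIF and serum. Both clones were also measured after conversion in 2i, a medium known to block the kinases MEK and GSK3 (2i iPSCs, 1 array per clone). The embryonic stem cells (ESCs), grown conventionally, were a male C57BL/6 line from blastocysts of Nanog-GFP transgenic mice and the male 129sv line EBRTcH3, labelled wild-type. Embryonic fibroblasts (MEFs) of mixed sex from Nanog-GFP transgenic C57BL/6 mice, grown without LIF, gave 1 array. The sample title puts these embryos at 12.5 dpc and the series text at 13.5 dpc. Partial iPSCs of clone 2B1 infected with retrovirus made up the other 7 arrays, carrying empty vector, Cnot1, Cnot2, Cnot3, Trim28, Cnot1 with Cnot2 and Cnot3 (Cnot123), or Nanog, 1 array each. Every transduced array comes from the single clone 2B1, and no clone or line was measured more than once in a condition, so the spread behind the p-values is that between clones or lines, pooled over the 3 groups of 2 arrays.

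The values are log2 signals, normalized by the authors with RMA, and the arrays fall into 2 blocks of 7 that were normalized apart. Array maxima lay between 14.50 and 14.69. Naive pluripotency markers followed the labels: Zfp42 read 12.26 to 12.89 in 2i iPSCs and ESCs and at most 2.72 elsewhere. Fibroblast collagen Col1a2 read 14.52 in MEFs, 5.70 and 5.96 in ESCs, and 12.28 and 12.50 in 2i iPSCs, so that 2i iPSCs held more of it than ESCs. The Y-linked gene Eif2s3y followed the labelled sex, with 9.22 in MEFs, 9.34 and 10.21 in ESCs and at most 2.95 on the arrays of the female clones. Kdm5d, also Y-linked, did not separate the sexes. It read 3.40 in MEFs, 3.37 and 3.20 in ESCs and 2.92 to 3.50 on the arrays of the female clones. Xist differed within a clone: it read 5.44 on the untreated 2B1 array and 13.08 on the 2B1 array with empty vector, although both are labelled female and 2B1. In the male Nanog-GFP and EBRTcH3 ESCs Xist read 8.42 and 9.03.

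Most of these genes read near the top of the scale. On all 14 arrays, 29 of the 48 lay within 1 log2 unit of the array's maximum, 5 did so on some arrays and 14 on none. They made up 51.8% to 66.0% of all genes in that range, which held 47 to 59 genes per array. The brightest by mean were Rplp2 (14.34), a stalk protein of the large subunit, then Rpl41 (14.29), Rpl37a (14.28), Rps29 (14.28) and Rps2 (14.22). Rplp2, Rpl41, Rps29 and Rps2 stayed within 0.5 of the maximum on every array. Levels of different probe sets cannot be ranked as amounts of mRNA, so this order describes the signals only.

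Signals this bright hardly moved. Over the 7 untransduced arrays the range of a gene, from its lowest to its highest array, had a median of 0.19 for the 29 bright members (0.06 to 0.31). The 14 members that were never near the maximum had a median range of 1.02, reaching 9.46, and all 12663 tested genes had 1.42. For the 35 genes of any kind near the maximum on all arrays, which include the 29, the median was 0.19 too and the highest range 0.72. A change of mRNA that takes place above the range of the scanner and probes would not be visible in these values, and how large a change could be hidden was not tested.

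**Figure D1:**
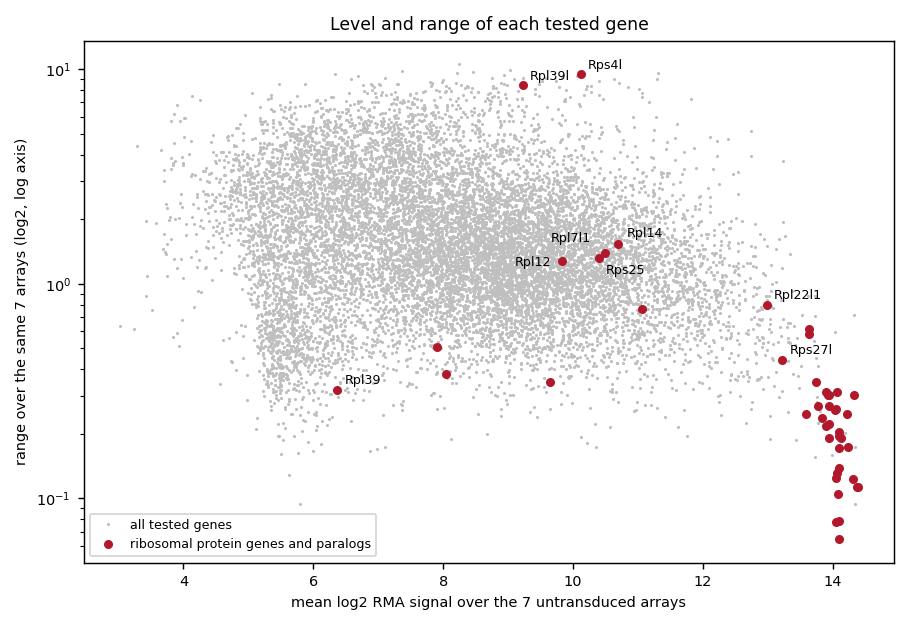
Mean log2 signal (x axis) against the range over the 7 untransduced arrays (y axis, log2 units on a log axis), 1 point per tested gene, all genes in grey and the 46 tested members in red. Most members lie at the bright end with ranges under 0.35, while Rps4l (9.46) and Rpl39l (8.39) lie at the top.

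Most dimmer probe sets of the same genes showed wider ranges over the untransduced arrays than the brightest (45 of 55). In 14 of the 23 genes with several probe sets, the brightest and the dimmest differed by more than 2 log2 units in mean. Rps20, a small subunit protein, read 14.02 to 14.16 over the untransduced arrays with its brightest probe set. A dimmer one read 7.08 and 7.87 in partial 2B1 and 5C5, 7.39 and 7.37 in 2i iPSCs, 4.87 in MEFs, 5.75 in Nanog-GFP ESCs and 8.54 in EBRTcH3. The low arrays of this probe set were therefore the MEFs and 1 of the 2 ESC lines, and the ESC lines lay on either side of the partial iPSCs. Rpl22, a large subunit protein, likewise read 13.66 in MEFs against 13.88 and 13.95 in partial 2B1 and 5C5 with its brightest probe set, and 8.65 against 10.13 and 10.91 with its dimmest. Rps20 and Rpl22 held the widest ranges among genes with several probe sets (3.66 and 2.26). A flat bright signal was therefore not read as a measurement that a gene did not change. The source of the wider ranges of dimmer probe sets was not tested.

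The exception was Rps4l, an autosomal paralog (chromosome 6) of the X-linked gene Rps4x of the small subunit. Rps4l read 3.85 and 3.84 in partial 2B1 and 5C5, 12.78 and 12.76 in the 2i iPSCs of the same clones, 13.30 and 12.99 in Nanog-GFP and EBRTcH3 ESCs, and 11.31 in MEFs. On the 7 transduced arrays it read 3.37 to 3.92. The partial iPSC signals lay near the 25th percentile of their arrays (3.82 and 3.81), so they stand at background, and the size of a fold change against them depends on that background. The groups were far apart, with no array between 3.92 and 11.31.

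The rise of Rps4l under 2i was 8.93 on the log2 scale (SE 0.19, limma adjusted p = 0.000551), and 8.93 and 8.92 in the clones 2B1 and 5C5 taken singly. ESCs exceeded partial iPSCs by 9.30 (SE 0.19, limma adjusted p = 0.000249). The pattern of Rps4l was known beforehand, and the gene passed the filter on dim genes only through the 5 arrays where it was high. Its p-values therefore describe size and spread and are no independent support. The parent gene Rps4x read 14.02 to 14.13 on all 14 arrays, within 1 of the maximum on each. On the 9 arrays where Rps4l stood at background, Rps4x read 14.06 to 14.12. Markers of fibroblasts moved with part of this pattern: 5 of 6 were above both partial arrays in 2i iPSCs and 6 of 6 in MEFs, while 6 of 6 were below them in ESCs. Their mean level was 7.92 and 8.27 in partial iPSCs, 9.29 and 9.46 in 2i iPSCs, 12.65 in MEFs, and 4.87 and 4.98 in ESCs. Of 3 germ cell markers, 3 were above both partial arrays in 2i iPSCs and in ESCs. The part of either marker list in the result was not tested.

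**Figure D2:**
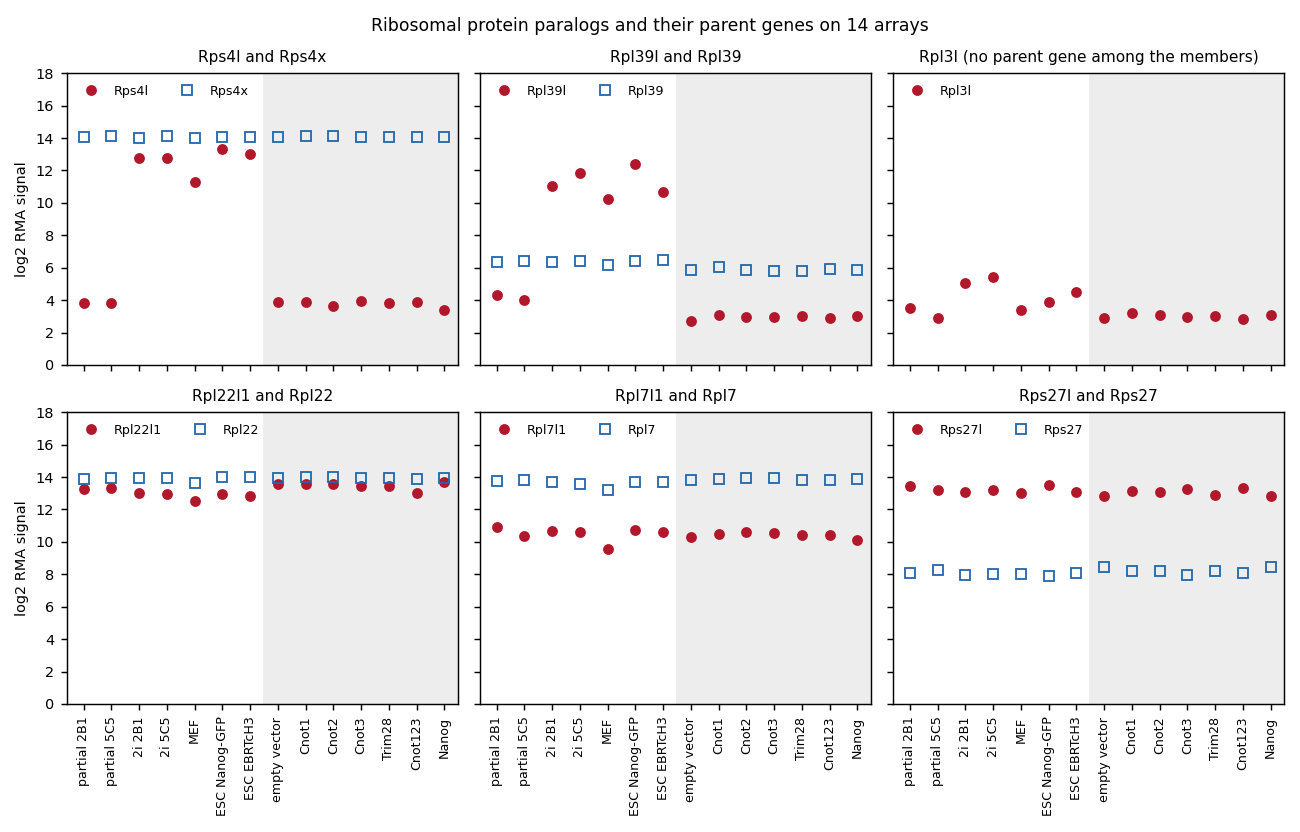
Log2 RMA signal (y axis) of 6 paralogs (red circles) and, where measured, their parent genes (blue squares) on each of the 14 arrays (x axis), with the separately normalized transduced block shaded. Rps4l and Rpl39l are low on the 2 partial and 7 transduced arrays and high on the other 5, while every parent gene drawn stays within a band of 0.75 over the 14 arrays; levels of different genes cannot be compared.

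Rpl39l followed the same division of arrays. This paralog of the large subunit protein Rpl39 lies on chromosome 16 and its parent on the X chromosome. Rpl39l read 4.33 and 4.01 in partial 2B1 and 5C5, 11.04 and 11.86 in 2i iPSCs, 12.41 and 10.69 in Nanog-GFP and EBRTcH3 ESCs, 10.21 in MEFs, and 2.74 to 3.08 on the transduced arrays. Again 5 arrays were high and 9 low, with no overlap. Unlike for Rps4l, the spread within the groups was wide, with a difference of -1.71 between the ESC lines (EBRTcH3 minus Nanog-GFP).

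Under 2i, Rpl39l rose by 7.28 (SE 0.62, limma adjusted p = 0.00743), by 6.71 in 2B1 and 7.85 in 5C5. ESCs exceeded partial iPSCs by 7.38 (SE 0.62, limma adjusted p = 0.0031). Rpl39l too passed the filter only through the 5 arrays where it was high, so its p-values describe size and spread only. The call under 2i was lost without the 2i array of 2B1 (7.69, limma adjusted p = 0.0662) or without that of 5C5 (6.87, adjusted p = 0.088). In these fits 0.395% and 0.34% of all genes were called, and the spread of the remaining 2i array was taken from the other groups. The parent Rpl39 read 6.15 to 6.48 on the untransduced arrays and 5.81 to 6.04 on the transduced ones, and its change under 2i was -0.01 (SE 0.17). Rpl39 is dim on these arrays, far from the maximum but little above the table's median of 5.42. A change of its mRNA may not be visible at this level.

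The promoters of this pair can be compared, because the RefSeq table of promoters (build GRCm38.p6, 250 bases before to 50 after each start) holds both. It holds 42 of the 48 members, with 50 entries, and Rps4l is not among them. The 250 bases before the start are given here for Rpl39l (chr16:10169978-10170227, plus strand) and Rpl39 (chrX:37085223-37085472, minus strand), 5′ to 3′, with CCGGAAG, the core of sites bound by Ets family factors, in capitals.
Rpl39l: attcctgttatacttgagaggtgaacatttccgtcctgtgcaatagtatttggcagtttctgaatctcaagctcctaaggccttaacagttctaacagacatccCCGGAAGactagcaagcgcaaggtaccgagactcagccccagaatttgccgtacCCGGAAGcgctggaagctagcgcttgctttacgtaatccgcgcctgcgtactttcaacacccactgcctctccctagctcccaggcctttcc
Rpl39: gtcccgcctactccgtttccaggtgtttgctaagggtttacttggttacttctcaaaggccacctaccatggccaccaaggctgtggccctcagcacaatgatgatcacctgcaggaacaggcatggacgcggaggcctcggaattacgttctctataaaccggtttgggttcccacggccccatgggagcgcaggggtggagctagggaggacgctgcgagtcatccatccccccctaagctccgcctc

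Rpl39l holds the letters 2 times, starting 146 and 92 bases before the start, and the stretch of Rpl39 shown holds none, although its table entry holds 1 on the other strand after the start. On either strand, CCGGAAG occurs in 20 of the 50 member entries (40%) and in 8.86% of all 32851 entries of the table. Rpl39l shares the letters with 19 other members, among them Rpl41, Rplp2, Rps2, Rps25 and Rps27l. Other motifs searched on both strands were CACGTG, the E-box bound by Myc (10% of member entries, 7.15% of all), GCGGGAA of E2f factors (12% and 4.6%), and AAGATGGC of YY1 (8% and 2.75%). ATGCAAAT, the octamer bound by Pou5f1, was in 0% of member entries and 1.74% of all, and TATAAA in 12% and 13.6%. The motifs were chosen after the promoters had been looked at, and do not contain one another, and a match describes letters, not binding.

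Base composition also set the entries apart. Member entries held a median of 21.5 CpG dinucleotides in 300 bases, against 7 over the table. Rpl39l and Rpl39 held 17 each, and the 2 entries of Rpl3l held 2 and 3. Transcripts of ribosomal protein genes are known to begin with a run of pyrimidines that ties their translation to mTOR. In 11 of the 50 entries (22%) the first 5 bases after the annotated start were pyrimidines only, against 4.44% over the table. Neither Rpl39l nor Rpl39 was among them. The count depends on the annotated start being exact to the base, so the other entries are not shown to lack such a run.

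Rpl3l, the muscle paralog of Rpl3, stayed dim. It read 3.54 and 2.92 in partial 2B1 and 5C5, 5.07 and 5.45 in 2i iPSCs, 3.89 and 4.52 in ESCs, 3.42 in MEFs and 2.85 to 3.18 on the transduced arrays. The 2i arrays were the highest, but a single array (2i 5C5) reached the table's median of 5.42, so the gene was left out as dim. With no filter on dim genes, it was called higher under 2i (2.03, limma adjusted p = 0.0415) and not in ESCs (0.98, adjusted p = 0.136). The muscle markers Myog, Myod1 and Ckm read at most 4.58, 4.32 and 5.17 in 2i iPSCs. The parent Rpl3 has no probe set of its own.

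The remaining paralogs moved by less than 1 log2 unit in each test. Rpl22l1, the paralog of Rpl22, read 13.26 and 13.33 in partial 2B1 and 5C5, 13.02 and 12.94 in 2i iPSCs, 12.95 and 12.82 in ESCs and 12.53 in MEFs. The partial clones were thus above the other 5 arrays without overlap. The differences of -0.31 under 2i (SE 0.18, limma adjusted p = 0.352) and -0.41 in ESCs (SE 0.18, adjusted p = 0.176) did not pass. Rpl22 read 13.66 to 13.98 over the same arrays, near the maximum.

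Rps27l, known as a target of p53, overlapped between partial iPSCs, 2i iPSCs and ESCs. Rps27l read 13.42 and 13.21 in partial 2B1 and 5C5, 13.06 and 13.23 in 2i iPSCs, 13.49 and 13.06 in ESCs and 13.05 in MEFs. Its change under 2i was -0.17 (95% interval -0.75 to 0.42). Rps27 was read from a dimmer probe set, at 8.05 and 8.27 in partial 2B1 and 5C5 and 7.95 and 8.04 in 2i iPSCs. Both 2i arrays lay just below both partial arrays, and its change was -0.16 (95% interval -0.66 to 0.33). Neither interval reaches 1 in size.

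Rpl7l1, the paralog of Rpl7, depended on the probe set. Its brightest signal was 10.94 and 10.34 in partial 2B1 and 5C5, 10.67 and 10.59 in 2i iPSCs, 10.73 and 10.62 in ESCs and 9.55 in MEFs, so that only the MEF array stood apart. Another read 10.39 and 10.41, 10.72 and 10.86, 10.99 and 10.97, and 10.52 in the same order. With it the partial clones were the lowest and the MEF array lay just above them. The brightest probe set did not share this order, so no single direction is given for Rpl7l1. Its parent Rpl7 changed by -0.16 under 2i (SE 0.17).

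Over all members, conversion under 2i (n = 2 arrays against 2) changed Rps4l and Rpl39l and no other gene past the test. Of 46 tested members, 2 rose by limma, where 3.55% of all tested genes rose, and 0 fell, where 2.46% fell. Rps4l and Rpl39l passed the filter on dim genes through the 5 arrays where they were high, so they had to differ, and their number says nothing about the family. Rpl3l and Rps16 were left out as dim. The probe set of Rps16, a small subunit protein, read 2.64 to 3.28 throughout, which is background.

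The other 44 members changed by -0.84 to 0.06 under 2i, and 0 of the 44 reached 1 log2 unit. The lowest was Rps25, a small subunit protein that some viral and cellular internal ribosome entry sites need. Rps25 read 11.07 and 10.78 in partial 2B1 and 5C5, 10.20 and 9.97 in 2i iPSCs, 10.82 and 9.75 in ESCs and 10.18 in MEFs. It was lower in both 2i arrays, by 0.84 on average (log2 fold change -0.84, SE 0.39, limma adjusted p = 0.265), and the ESC lines fell on either side of them. Rpl14, a large subunit protein, changed by -0.65 (SE 0.39, adjusted p = 0.384).

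Counted by direction, both 2i arrays lay below both partial arrays for 14 of the 46 tested members, where 29.5% of all genes did so. Both lay above for 3, where 34.2% of all genes did. The median change was -0.03 for the members and 0.03 for all genes. For the 29 bright members the changes ran from -0.17 to 0.05 and the outermost bounds of their 95% intervals were -0.62 and 0.49. These bounds hold for the signal, which near the maximum can be smaller than the change in mRNA.

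**Figure D3:**
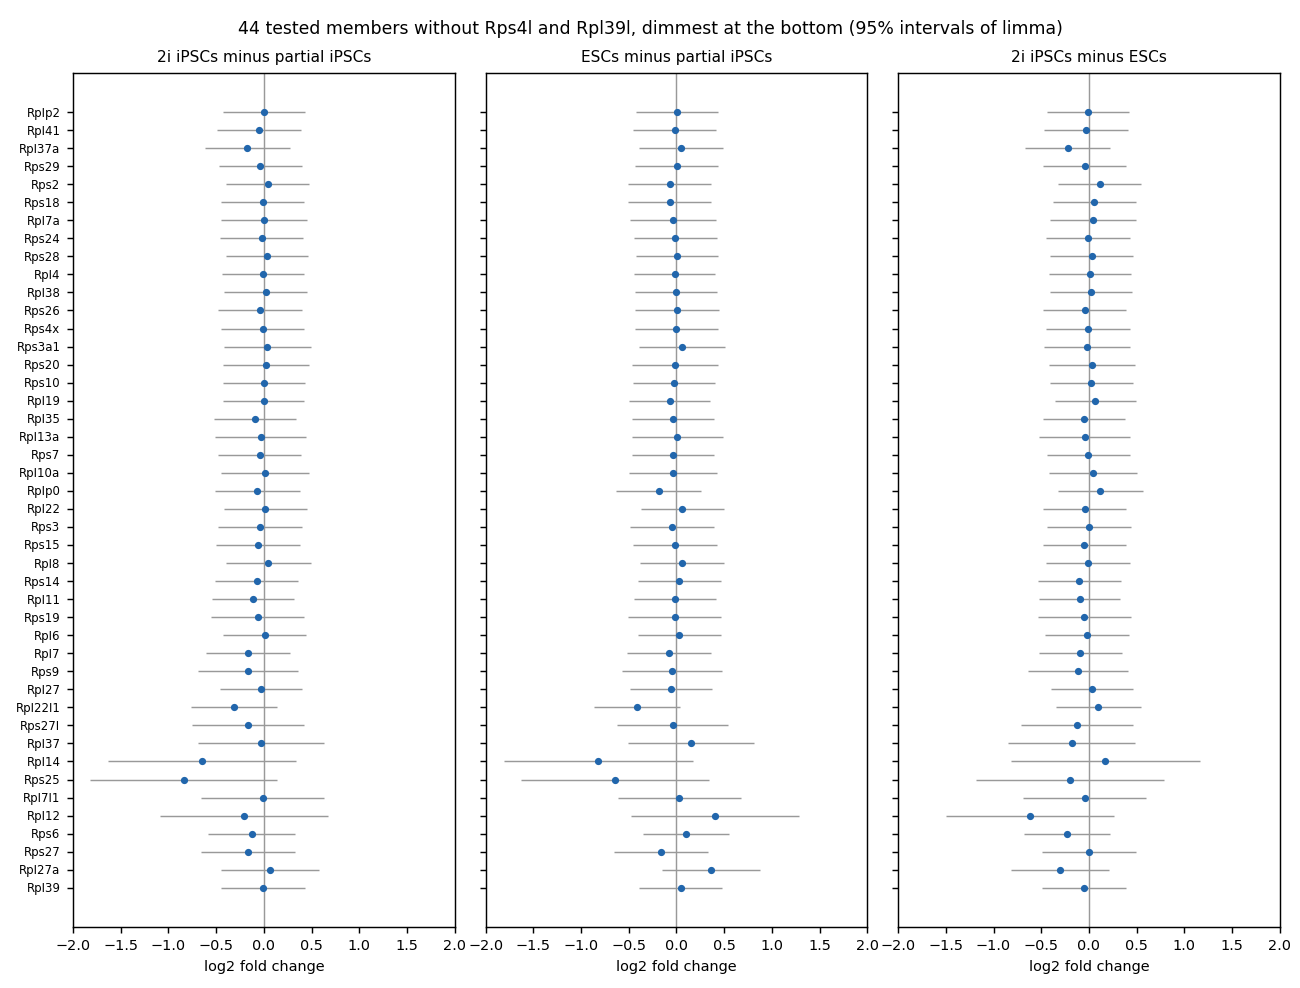
Log2 fold changes (x axis) with 95% intervals of limma for the 44 tested members other than Rps4l and Rpl39l (rows, dimmest at the bottom), in the 3 comparisons of groups with 2 arrays. Every point lies between -0.84 and 0.41, every interval includes 0, and the widest intervals belong to Rps25, Rpl14 and Rpl12.

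In ESCs against partial iPSCs (n = 2 against 2), which differ also in sex, line and, for EBRTcH3, strain, the same members passed. By limma 2 of 46 were higher (6.09% of all genes) and 0 lower (9.82%). The other 44 lay between -0.82 (Rpl14, SE 0.39, limma adjusted p = 0.215) and 0.41 (Rpl12, SE 0.35, adjusted p = 0.463). Rpl14 read 10.94 and 11.38 in partial 2B1 and 5C5 and 10.84 and 9.85 in the ESC lines, so that the difference rests mostly on EBRTcH3. Rps25 was called lower when the Nanog-GFP line was left out (-1.18, limma adjusted p = 0.0429) and stood at -0.11 without EBRTcH3. This comparison shares its partial arrays with the comparison under 2i.

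Between 2i iPSCs and ESCs, 0 of 46 members were called by limma, where 3.85% of all genes were, and 0 had an unadjusted p below 0.05. Rps4l was lower in 2i iPSCs by 0.37 (log2 fold change -0.37, 95% interval -0.87 to 0.12). For Rpl39l the difference was -0.10 with a wide interval (-1.67 to 1.47). Rpl12, which forms the base of the ribosomal stalk with Rplp0, had the largest difference of the other 44 (-0.62, SE 0.35, adjusted p = 0.483). The intervals leave room for differences of more than 1 log2 unit in Rpl39l, Rpl12, Rpl14 and Rps25.

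Lines of the same group also differed in these genes. Between the partial clones 0 of 46 members were at least 2-fold apart (10.63% of all genes), and Rpl12 was 0.76 higher in 5C5. Between the 2i iPSCs it was 0 (1.73% of all genes), with Rpl39l 0.82 higher in 5C5. Between the ESC lines it was 2 (15.81% of all genes), Rpl39l and Rps25, with EBRTcH3 minus Nanog-GFP at -1.71 and -1.07.

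Fibroblasts, a differentiated cell type measured on 1 array without a replicate, were set against both partial iPSC arrays. Rps4l (7.46 above each clone) and Rpl39l (5.89 and 6.20 above) were the 2 members at least 2-fold higher, where 9.9% of all genes were, and 0 were at least 2-fold lower, where 11.3% were. Of 6 naive pluripotency markers in MEFs, 3 were below both partial arrays, among them Nanog (3.72) and Tfcp2l1 (4.02), and 2 were above, Klf2 (9.01 against 7.59 and 7.44) and Esrrb (6.98 against 6.87 and 6.82). Zfp42 (2.55) lay between the partial arrays. The mean of the 6 was 5.34 in MEFs, 5.46 and 5.71 in partial iPSCs, and at least 11.78 in 2i iPSCs and ESCs. Among germ cell markers, MEFs read 3.46 for Dazl, 2.86 for Mael and 5.12 for Ddx4, against at most 3.39, 3.13 and 2.89 in partial iPSCs. Rps4l was lower in MEFs than in 2i iPSCs (-1.48 and -1.45) and ESCs (-1.99 and -1.68).

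Smaller differences in MEFs ran mostly one way. Of the 46 members, 39 were below both partial arrays by any amount, where 44.2% of all genes were, and 7 were above both (38.1%). Against ESCs the count was 35 (45.6% of all genes) and against 2i iPSCs 36 (49.6%), all with the same MEF array. After quantile normalization of the 7 arrays, chosen after the data were seen, 33 of the 46 were below both partial arrays (42.5% of all genes). It left 30 below both ESC arrays (45.6%). With each array centred on its median, 29 were below both 2i iPSC arrays (46.8%), so the counts depend on the scaling. The sizes were small: among the 29 bright members the median was -0.13, and 25 of the 29 were below both clones. Over all 46 the median was -0.16, and -0.07 over all genes.

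The members furthest down in MEFs were never or not always near the maximum. At least 1.5-fold lower than both partial arrays were 4 of 46, where 20.9% of all genes were: Rpl7l1 (-1.40 and -0.80), Rpl22l1 (-0.73 and -0.80), Rps25 (-0.89 and -0.60) and Rpl7 (-0.61 and -0.61). The lower value of Rpl7l1 holds for its brightest probe set only. Highest after the 2 paralogs were Rpl27a (0.09 and 0.12) and Rps2 (0.03 and 0.06). With 1 MEF array, no spread can be given for these values.

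**Figure D4:**
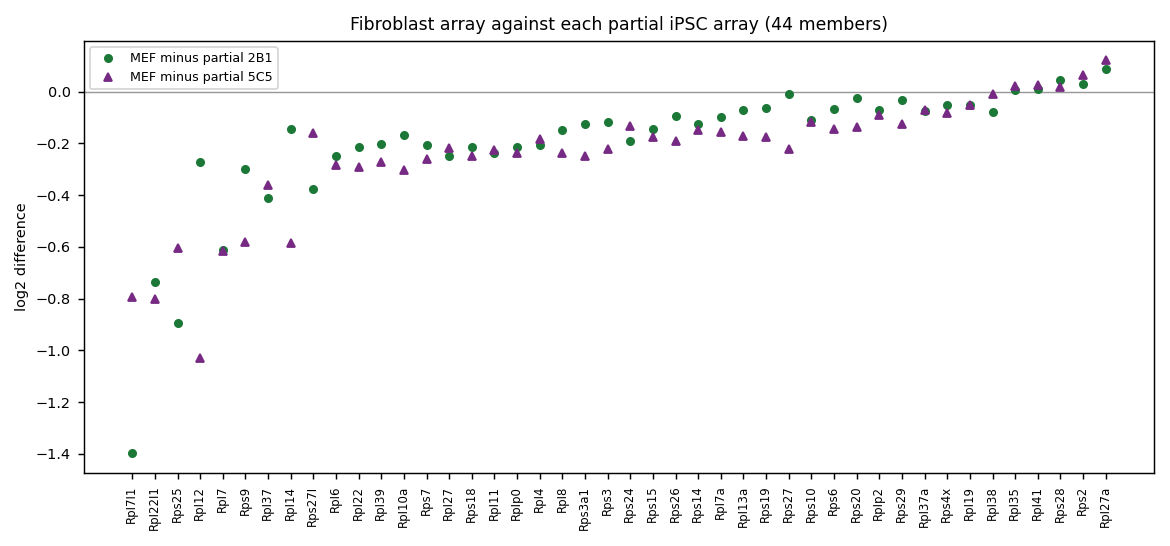
Log2 difference of the MEF array from partial 2B1 (green circles) and from partial 5C5 (purple triangles) for 44 tested members (x axis, ordered by the mean), without Rps4l and Rpl39l. Most points lie slightly below 0, and Rpl7l1, Rpl22l1, Rps25 and Rpl7 lie at or below -0.60 in both.

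The transduced arrays ask what subunits of Ccr4-Not, which shortens the poly(A) tails of mRNA, the corepressor Trim28, or Nanog did in 2B1. Each was compared with the empty vector array, without replicates. On each of the 6 arrays, 0 of 46 members were at least 2-fold higher or lower. At least 2-fold higher were 4.15% of all genes with Cnot1, 2.87% with Cnot2, 2.49% with Cnot3, 3.72% with Cnot123, 0.963% with Trim28 and 0.561% with Nanog. At least 2-fold lower were 5.87%, 3.89%, 5.19%, 8.43%, 1.52% and 0.869% in the same order.

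Rps4l and Rpl39l stayed at background on all 6. Rps4l read 3.90 with empty vector and 3.90, 3.61, 3.92, 3.83, 3.90 and 3.37 with Cnot1, Cnot2, Cnot3, Trim28, Cnot123 and Nanog. Rpl39l read 2.74 and then 3.08, 2.94, 2.98, 3.02, 2.89 and 3.00. Neither gene approached its level in 2i iPSCs, above 11, on any of these arrays. This level comes from the other block of arrays. The Nanog probe set read 3.12 on the Nanog array and 4.11 with empty vector, so it does not show the transgene. Levels of Cnot1, Cnot2, Cnot3 and Trim28 on these arrays are not given here, and expression of the transgenes was not tested.

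The members with the largest differences were the same few on several arrays, and all 6 differences share 1 empty vector array. Rpl12 was the lowest member with Cnot1 (-0.43), Cnot2 (-0.32), Cnot3 (-0.46) and Trim28 (-0.34). Its empty vector array (10.35) was the highest of its block. Rps27l was the highest with Cnot3 (0.44) and Cnot123 (0.45), and Rpl22l1 was the lowest with Cnot123 (-0.52), where it read 13.03 against 13.55. With Cnot123, 34 of 46 members lay below the empty vector array, where 50.5% of all genes did, with a median of -0.08 for the members and -0.01 for all genes. With Cnot1, Cnot2, Cnot3, Trim28 and Nanog the counts were 27 (55.1%), 21 (54.7%), 30 (51.3%), 31 (52.5%) and 25 (52.9%).

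**Figure D5:**
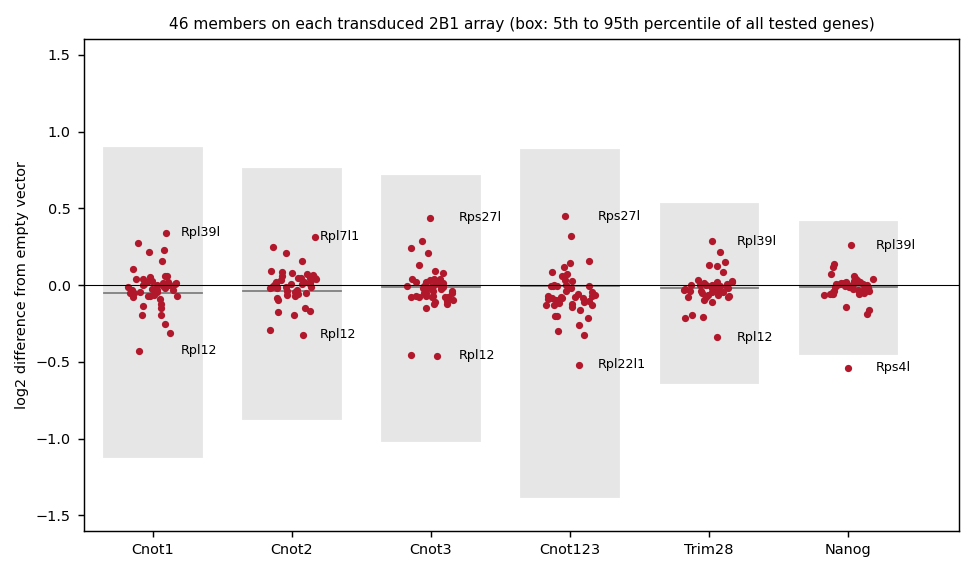
Log2 difference from the empty vector array (y axis) of the 46 tested members (red points, spread sideways for legibility) on each transduced 2B1 array, over a grey box from the 5th to the 95th percentile of all tested genes with their median as a line. Every member lies within 0.54 of 0, and the lowest and highest member are named.

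The X-linked members are Rps4x and Rpl39. Xist, which silences an X chromosome, read 5.44 and 13.49 in the untreated clones 2B1 and 5C5, while Rps4x read 14.07 and 14.10 and Rpl39 6.36 and 6.43. On the transduced arrays Xist ranged from 4.79 with Cnot123 to 13.08 with empty vector. There Rps4x read 14.08 with Cnot123 and 14.06 with empty vector, and Rpl39 5.90 and 5.83. With Cnot1, where Xist read 8.88, Rpl39 read 6.04, the highest of its block, and Rps4x 14.12. Rps4x is near the maximum on all of these arrays and Rpl39 is dim.

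Genes that build, regulate or work with the ribosome were counted from lists. Of 40 genes of ribosome biogenesis, 0 were called under 2i, and in ESCs the polymerase I initiation factor Rrn3 was called higher (0.97, SE 0.18, limma adjusted p = 0.0276) and 0 lower. Of 76 genes of the mitochondrial ribosome, 0 were called under 2i, and in ESCs Mrps31 was higher (1.18, SE 0.21, adjusted p = 0.0233) and Mrpl9 lower (-0.82, SE 0.19, adjusted p = 0.047). Of 30 translation factors 0 were called in either comparison, nor were the ribosome genes Fau and Rpsa. Between 2i iPSCs and ESCs, 0 genes of these 4 lists were called, where 3.85% of all genes were. The shares of the whole table called were 3.55% upward and 2.46% downward with 2i, and 6.09% and 9.82% in ESCs. At an unadjusted p below 0.05 there were 8 biogenesis genes (20%), 7 mitochondrial (9.21%) and 2 translation factors (6.67%) under 2i, where 24.3% of all genes were, and 3 (7.5%), 9 (11.8%) and 0 in ESCs, where 32.7% of all genes were.

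Among 9 regulators of ribosome production, 2 were called under 2i (6.00% of all genes) and 2 in ESCs (15.9%), Myc and Mycn each time. Between 2i iPSCs and ESCs, 1 was called, Mycn (3.85% of all genes). Mycn was read from its brightest probe set. Myc, a transcription factor that drives ribosome biogenesis, read 11.96 and 12.34 in partial 2B1 and 5C5, 8.24 and 8.64 in 2i iPSCs, 7.92 and 7.81 in ESCs, and 8.80 in MEFs. It fell by 3.71 under 2i (SE 0.24, limma adjusted p = 0.00413). Myc is commonly among the reprogramming factors, and the probe set does not say whether a transgene contributes. The median change of the biogenesis list beside it was -0.17 under 2i and 0.15 in ESCs, where the medians of all genes were 0.03 and 0.00. Mycn probe sets disagree in direction, so none is given for it. In MEFs, 6 of the 40 biogenesis genes were at least 2-fold below both partial arrays and 0 above, where 11.3% and 9.9% of all genes were, with a median of -0.71 against -0.07 over all genes. The mitochondrial ribosome had 2 of 76 below and 1 above, and the translation factors 4 of 30 and 0. The share below was 15% for biogenesis, 2.63% for the mitochondrial ribosome and 13.3% for translation factors.

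The probe sets that name a ribosomal protein gene together with other genes were counted by size only. There were 110 of them, with a median level of 13.79, so many lay near the maximum, where a change of mRNA may not be visible. In both 2i iPSCs and ESCs, 0 of the 110 were at least 2-fold above or below the partial iPSCs in all 4 differences between arrays. Their range over the 7 untransduced arrays had a median of 0.28 and reached 3.54. The share of all probe sets under the 2-fold rule was not counted, so the 0 of 110 is not read as a result about these genes.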

How the data were processed

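The authors deposited log2 probe set values made with RMA and the affy package, per the submitters' processing notes. The sources used here give no versions, settings or annotation build. The 45101 probe sets included 34945 with 1 gene, 932 with several, 9160 with none and 64 controls. Sorted values differed by a median of 0.085 and 0.096 within the blocks of 7 arrays and 0.318 over all 14, so tests stayed within a block. Genes were tested if 2 arrays reached 5.42, the table's median (12663 tested, 5530 dim). Groups of 2 were fitted with limma 3.58.1 in R 4.3.3 (6 arrays; degrees of freedom 3 residual, 2.25 prior). Two-sided p-values were Benjamini-Hochberg adjusted over 12663 genes, with calls below 0.05. The script was tested on simulated data. Conditions with 1 array have no test, and precision is limited by the number of arrays. Near saturation means within 1 log2 unit of an array's maximum. Named were paralogs with parents, called genes, the extremes of each comparison, X-linked members, and the brightest and dimmest. The members and lists were chosen with earlier results of these data known. Clones pair the untreated and 2i arrays, with a correlation of 0.11 between deviations from group means. RefSeq promoters were matched by gene identifier.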

Additional observations from a re-analysis of the deposited data

Results flagged for a closer look

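Rpl7l1, read from its brightest probe set, moved in opposite directions in the 2 clones: its 2i array differed from the untreated array by -0.28 in 2B1 and by 0.25 in 5C5. This gene was listed because the clones' signs differ with each change at least 0.2 in size, and the difference between the clones was not tested. With the next probe set the 2i array was above the untreated array in both clones (10.72 against 10.39 and 10.86 against 10.41). The same held for the dimmest probe set (8.83 against 8.42 and 8.68 against 8.33).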

How the results depend on the processing

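Without either 2i array, 1 of the members was called under 2i (Rps4l), where 0.395% and 0.34% of all genes were called and Rpl39l stood at 7.69 and 6.87, so that the count ran from 1 to 2 over the arrays left out. It ran from 2 to 3 in ESCs against partial iPSCs and stayed at 0 for 2i iPSCs against ESCs. With the clone as a replicate block, 2 members were called under 2i, where 2.35% of all genes were. Rps4l then changed by 8.93 (limma adjusted p = 0.00515), and the block changed no member's call. The change of Rps4l was 8.87 to 8.94 over the 13 alternatives under 2i and 9.14 to 9.45 over the 12 in ESCs. These alternatives are not all distinct. Leaving out an array of the group not compared gave the same fit as using only the 4 arrays compared. Rps4l passed the filter only through the arrays where it was high, so these values describe its size and are no independent support. At 1.5-fold in place of 2-fold, 6 of 46 members differed in MEFs, where 37.5% of all genes did. Within 0.5 of the maximum in place of 1, 4 members were near saturation. Centring or quantile normalization moved the median of all genes by under 0.1. Counts with the brightest probe set that has no suffix in its name were 2 under 2i (6.14% of all genes) and 2 in ESCs (15.7%). In MEFs the count was 3 (21.4% of all genes), where Rps20 joined as lower. Groups of 2 and single arrays, signals near the maximum, and probe sets that disagree limit these values. Without the dim filter, Rpl3l was called under 2i, as given above.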
